A study of Mus musculus with 6 samples.

Results

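The genes compared here encode enzymes and subunits that take ubiquitin off histone H2B. They are the 4 genes of the deubiquitinase module of the transcriptional coactivator SAGA (Usp22, Atxn7l3, Eny2 and Atxn7) and 4 further ubiquitin proteases that act on H2B or on histones in general (Usp3, Usp7, Usp49 and Usp44). These 8 genes were chosen by name from the 24015 gene symbols of the count tables, by a rule that uses no measured value but with earlier results of these data known. The question was whether genes of the opposing enzymes differ in transcript level when the ligase that puts the ubiquitin on is deleted. RNA-Seq counts came from whole sciatic nerves of mice at postnatal day 14, with 3 libraries for each of 2 genotypes and a pool of 3 nerves for each library. Control mice were Rnf40 fl/fl without Cre. Rnf40ΔSC mice carried Dhh::Cre together with Rnf40 fl/fl, on the mixed 129SvJ/C57Bl/6J background that the labels give to both genotypes. Exons 3 and 4 of Rnf40 are flanked by loxP sites in both groups, and mice of both sexes were used. The Dhh::Cre transgene is active in the Schwann cell lineage from the late precursor stage on, and recombination in other cells of the nerve was not tested here.

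Monoubiquitin is attached to histone H2B by the E3 ligase of Rnf40 and Rnf20, which travels with elongating RNA polymerase II, and the mark is removed again in repeated rounds while genes are transcribed. In the SAGA module USP22 is the protease, but it is active only when ATXN7L3 and ENY2 are bound, and ATXN7 anchors the module to the rest of SAGA. USP27X and USP51 can take the place of USP22 with the same partners ATXN7L3 and ENY2, whereas USP3, USP7, USP49 and USP44 work outside SAGA.

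Control replicates 1, 2 and 3 held 1317167, 1992622 and 2468765 reads counted on genes, and Rnf40ΔSC replicates 1, 2 and 3 held 2184268, 1459387 and 2186710. Libraries of 1 genotype were not equal in all respects. Genes of skeletal muscle, a list of 9 with Myh4 as the most abundant, took 0.365%, 0.261% and 0.200% of the counts in the control libraries, but 0.00971%, 0.0221% and 0.288% in the Rnf40ΔSC libraries. Thus Rnf40ΔSC replicates 1 and 2 were low in muscle reads and Rnf40ΔSC replicate 3 lay in the control range. The Y-linked genes Ddx3y, Eif2s3y, Kdm5d and Uty had 0 reads in control replicate 1 and in Rnf40ΔSC replicate 2 and had reads in the other 4 libraries, which puts 1 library without Y-linked reads in each group. Within each group the libraries differed beyond sampling noise, with chi-square values of 1.78 to 5.22 per degree of freedom, so that none was counted as a repeat of another.

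The targeted gene Rnf40 had 127, 123 and 138 normalized counts in control nerves and 87.7, 87.9 and 91.5 in the Rnf40ΔSC libraries. Normalized counts are reads scaled to a common library size by edgeR's TMM factors. Each Rnf40ΔSC library lay below each control library, in the direction of the labels. Whole-gene counts include reads outside the deleted exons and reads from cells without Cre, and in bulk nerve fewer cells of a type and less RNA per cell cannot be told apart. The log2 fold change of Rnf40 was -0.54 (SE 0.14, lower in 3 of 3 libraries), with a Benjamini-Hochberg adjusted p of 0.00242 in edgeR's quasi-likelihood test. Total-count scaling gave Rnf40 a log2 fold change of -0.27 and an adjusted p of 0.12 (edgeR, Benjamini-Hochberg; 0.00235 to 0.12 over all alternatives), which loses the call. Its ligase partner Rnf20 had 123, 124 and 109 normalized counts in control and 171, 179 and 133 in Rnf40ΔSC nerves. All 3 Rnf40ΔSC libraries were above the controls, and Rnf40ΔSC replicate 3, the library with muscle reads, was the lowest of them. For Rnf20 the log2 fold change was 0.44 (SE 0.13, adjusted p = 0.00998 in the same edgeR test, Benjamini-Hochberg). With DESeq2 the adjusted p of Rnf20 was 0.0665 at a log2 fold change of 0.45. In edgeR (Benjamini-Hochberg) it was 0.087 without control replicate 3 (log2 fold change 0.37) and 0.057 without Rnf40ΔSC replicate 1 (0.40). With total-count scaling the adjusted p of Rnf20 was 5.82e-05 (edgeR, Benjamini-Hochberg). Without Rnf40ΔSC replicates 1 and 2 the log2 fold change of Rnf20 fell to 0.18.

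Of the 8 H2B deubiquitinase genes, 7 passed edgeR's filter on low counts and Usp44 did not. An adjusted p of at most 0.05 was reached by 2 of these 7 (28.6%), with Usp7 higher and Atxn7l3 lower in Rnf40ΔSC nerves. Among all 11371 genes tested the same limit was reached by 3597 (31.6%), of which 1756 (15.4%) were higher and 1841 (16.2%) lower. The base mean, the average normalized count over the 6 libraries, was 20 or more for all 7 tested members, and of the 9252 genes at this abundance 3276 (35.4%) were called. The members' share is thus near the background and does not set them apart from other genes. Stricter limits (log2 fold change of 0.8 or more in either direction, base mean 20 or more) left 982 of 11371 genes (8.64%) with edgeR, and 859 without and 771 with the prior of DESeq2, and 0 of the 7 members in each case. In edgeR 2 of the 7 members had an unadjusted p under 0.05, compared with 4657 of 11371 genes. Groups of libraries did not overlap for 2 of 7 members, compared with 4948 of 11371 genes (43.5%), where chance gives 10%. The median log2 fold change of the 7 members was 0.06, compared with -0.0026 over all genes tested. Regardless of sign, the median absolute log2 fold change was 0.14 for the members and 0.32 over all genes tested.

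**Figure D1:**
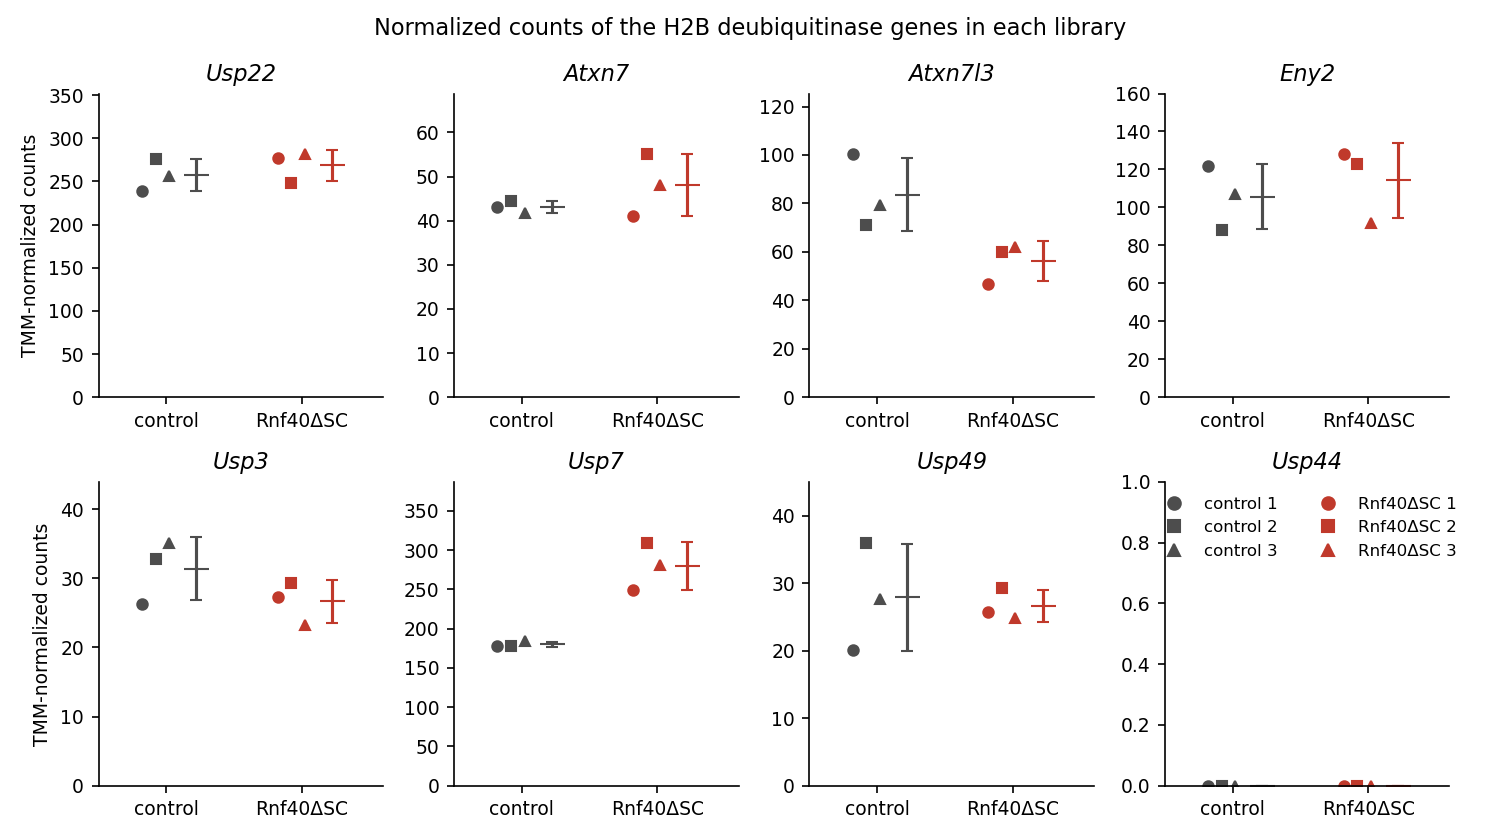
Normalized counts (TMM) of the 8 H2B deubiquitinase genes in 3 control (grey) and 3 Rnf40ΔSC (red) libraries, with the symbol shape giving the replicate number and the bars giving mean and SD. The Rnf40ΔSC libraries of Usp7 lie above its controls, between 249 and 309, those of Atxn7l3 lie below its controls, between 46.7 and 62.1, and the groups overlap for the other members.

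With TMM scaling the catalytic subunit of the SAGA module did not differ detectably between the genotypes. Usp22 (chromosome 11, minus strand, 60965287 to 60988557 in mm9) had 239, 276 and 257 normalized counts in controls and 277, 248 and 282 in Rnf40ΔSC libraries. High and low values were found in both groups, and the groups overlapped. Means were 258 ± 18.6 in control and 269 ± 17.96 in Rnf40ΔSC nerves (SD, n = 3 libraries each). For Usp22 the log2 fold change was 0.06 (SE 0.10, 95% interval -0.15 to 0.27), with an adjusted p of 0.687 in the quasi-likelihood test of edgeR (Benjamini-Hochberg) and 2 of 3 Rnf40ΔSC libraries above the control mean. On the linear scale the interval ran from 0.903-fold to 1.21-fold, but it does not hold with every scaling. Total-count scaling gave Usp22 a log2 fold change of 0.33 and an adjusted p of 0.00967 (edgeR, Benjamini-Hochberg; up to 0.938 over all alternatives). A larger absolute log2 fold change than that of Usp22 was found for 90.2% of the genes tested. None of the 4249 exonic 50-base stretches of Usp22 was found more than once in the genome, and no other annotated exon overlapped it.

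Atxn7l3, whose product is needed for the activity of the protease, was the member of the module that fell. This gene (chromosome 11, minus strand, 102150614 to 102157945 in mm9) had 65, 67 and 95 raw reads in control replicates 1, 2 and 3 and 58, 51 and 80 in the Rnf40ΔSC libraries. After scaling, these were 100.3, 71.0 and 79.5 normalized counts in control and 46.7, 59.8 and 62.1 in Rnf40ΔSC nerves. Control replicate 1 was the highest library and Rnf40ΔSC replicate 1 the lowest, and no Rnf40ΔSC library reached the lowest control. The means were 83.6 ± 15.1 and 56.2 ± 8.29 normalized counts (SD, n = 3 libraries each). Atxn7l3 had a log2 fold change of -0.56 (SE 0.18, 95% interval -0.92 to -0.19, 0.680-fold), with 3 of 3 Rnf40ΔSC libraries lower and an adjusted p of 0.0154 in the quasi-likelihood test of edgeR (Benjamini-Hochberg). A larger absolute log2 fold change was found for 26.2% of all genes tested.

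The call for Atxn7l3 was lost when either of 2 libraries was left out and with another test. Its adjusted p in the quasi-likelihood test of edgeR (Benjamini-Hochberg) rose to 0.101 without control replicate 1 (log2 fold change -0.43) and to 0.119 without Rnf40ΔSC replicate 1 (-0.42). In DESeq2 the adjusted p (Benjamini-Hochberg) was 0.104 at a log2 fold change of -0.55. Without Rnf40ΔSC replicates 1 and 2, the libraries low in muscle reads, the log2 fold change of Atxn7l3 was -0.40 and edgeR's Benjamini-Hochberg adjusted p 0.225. Over all alternatives the adjusted p ranged from 0.00939 to 0.225, and the log2 fold change of Atxn7l3 was negative in all 15 settings, from -0.66 to -0.29.

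Eny2, the small subunit that SAGA shares with the mRNA export complex TREX-2, had 122, 87.9 and 107 normalized counts in control nerves and 128, 123 and 91.5 in the Rnf40ΔSC libraries. Both groups held 1 low library, control replicate 2 and Rnf40ΔSC replicate 3, and the groups overlapped. Eny2 (chromosome 15, plus strand, 44259657 to 44269231 in mm9) had means of 106 ± 17.1 and 114 ± 19.8 (SD, n = 3 libraries each). Its log2 fold change was 0.12 (SE 0.15, 95% interval -0.19 to 0.43), with 2 of 3 Rnf40ΔSC libraries above the control mean and an adjusted p of 0.599 in the quasi-likelihood test of edgeR (Benjamini-Hochberg). The sign of this difference turned to -0.19 when Rnf40ΔSC replicates 1 and 2 were left out, with an adjusted p of 0.556 in edgeR (Benjamini-Hochberg; 0.0440 to 0.998 over all alternatives). Exons of Eny2 share 132 bases (5.43% of its exonic length) with Nudcd1 on the opposite strand, and the strand setting of the counting is not given in the sources used here.

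Atxn7, the anchor of the module and the gene whose repeat expansion causes spinocerebellar ataxia type 7, had 43.2, 44.5 and 41.8 normalized counts in control nerves and 41.0, 55.1 and 48.1 in the Rnf40ΔSC libraries. The controls were close together, whereas the Rnf40ΔSC libraries ran from just below to above them. With means of 43.2 ± 1.33 and 48.1 ± 7.01 (SD, n = 3 libraries each), Atxn7 (chromosome 14, plus strand, 14845005 to 14939810 in mm9) had a log2 fold change of 0.14 (SE 0.20, 95% interval -0.27 to 0.56). Its adjusted p was 0.637 in the quasi-likelihood test of edgeR (Benjamini-Hochberg), and 2 of 3 Rnf40ΔSC libraries were above the control mean. The interval reaches up to 1.47-fold and down to 0.829-fold, so that changes of this size were not detectable at a depth of 28 to 62 reads per library. The log2 fold change of Atxn7 was 0.05 without Rnf40ΔSC replicate 2, 0.26 without Rnf40ΔSC replicate 1 and 0.41 with total-count scaling, where the adjusted p was 0.104 (edgeR, Benjamini-Hochberg; up to 0.892 over all alternatives).

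**Figure D2:**
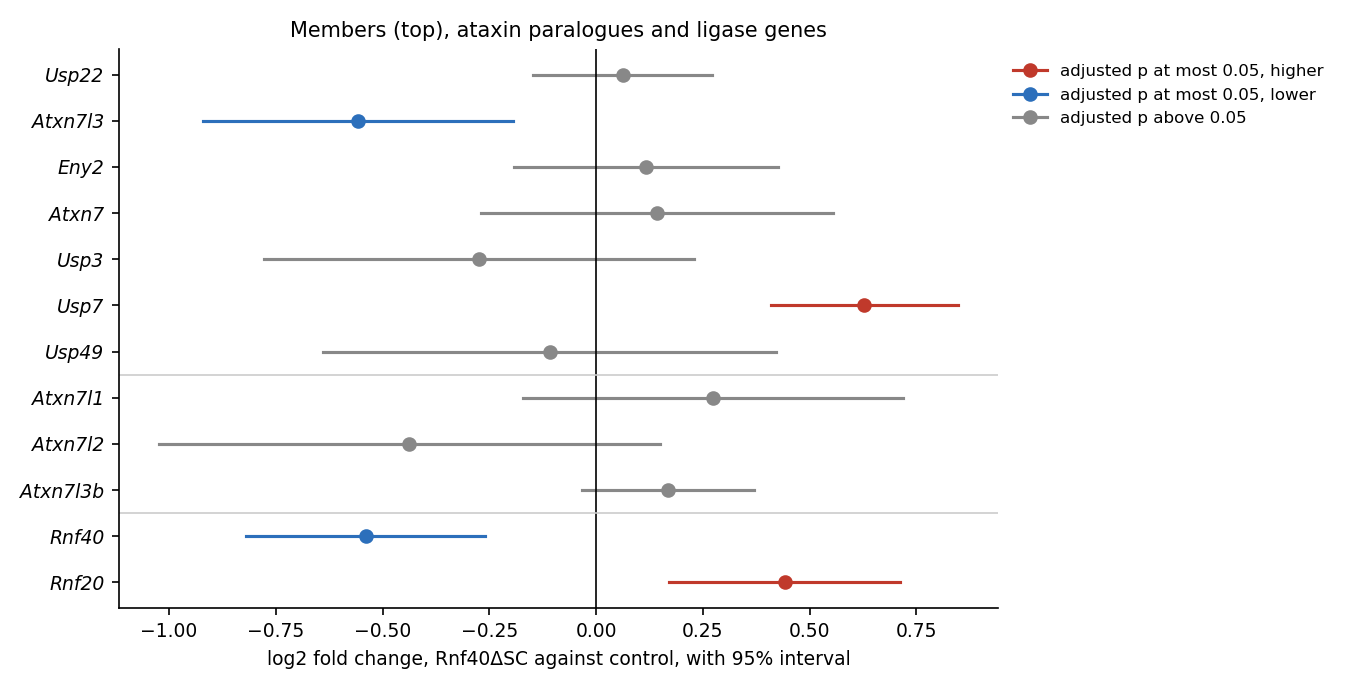
Log2 fold change between Rnf40ΔSC and control nerves with its 95% interval, from edgeR's quasi-likelihood fit, for the 7 tested members, 3 ataxin paralogues and the ligase genes Rnf40 and Rnf20, with red and blue marking an adjusted p of at most 0.05. Among members Usp7 (0.63) and Atxn7l3 (-0.56) have intervals clear of 0, but with total-count scaling the interval of Atxn7l3 moves up to a log2 fold change of -0.29 and an adjusted p of 0.214 (edgeR, Benjamini-Hochberg).

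Alternative proteases of the module were scarce, and paralogues of its ataxin genes did not pass the test with TMM scaling. Usp27x, an alternative protease, had 5, 4 and 13 raw reads in control and 11, 2 and 4 in Rnf40ΔSC nerves and did not pass the filter on low counts. Usp51, the other alternative protease, had between 0 and 1 read in control libraries and between 1 and 3 in the Rnf40ΔSC libraries, which is at or under a floor of 3 counts. Among the paralogues of the ataxin genes, Atxn7l3b, whose product binds ENY2 mainly in the cytoplasm and outside SAGA, was abundant, with 373, 421 and 366 normalized counts in control and 448, 476 and 384 in Rnf40ΔSC nerves. Its groups overlapped, and its log2 fold change of 0.17 (SE 0.10) had an adjusted p of 0.206 in the quasi-likelihood test of edgeR (Benjamini-Hochberg). Without Rnf40ΔSC replicate 3 this adjusted p was 0.0275, and without Rnf40ΔSC replicates 1 and 2 it was 0.970 at a log2 fold change of -0.01 (0.000559 to 0.970 over all alternatives). The log2 fold change was 0.27 for Atxn7l1 and -0.44 for Atxn7l2, with adjusted p of 0.366 and 0.265 (edgeR, Benjamini-Hochberg). With 1 library left out, the log2 fold change ran from 0.15 to 0.53 for Atxn7l1 and from -0.65 to -0.29 for Atxn7l2. Of these 5 genes 3 were tested and 0 were called by edgeR (compared with 31.6% of all genes). An unadjusted p under 0.05 in edgeR was reached by 0 of the 3, compared with 4657 of 11371 genes. DESeq2 called 0 of the 3, and 2267 of all genes without its prior. With total-count scaling edgeR called 4646 of 11371 genes and 2 of these 3, Atxn7l3b and Atxn7l1, at adjusted p of 0.000559 and 0.0460 (Benjamini-Hochberg). Without Rnf40ΔSC replicate 3 it called 3907 of all genes and 1 of the 3, Atxn7l3b.

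Levels were compared between members per kilobase of exon, as normalized counts divided by the exonic length in the annotation. In control nerves the order of mean level per kilobase was Usp22 (52.7 ± 3.81), Eny2 (43.5 ± 7.02), Usp7 (20.8 ± 0.425), Atxn7l3 (20.3 ± 3.67), Atxn7 (6.31 ± 0.194), Usp3 (4.59 ± 0.675), Usp49 (3.25 ± 0.930) and Usp44 at 0 (SD, n = 3 libraries). Neighbours whose libraries overlapped in this order were Usp22 and Eny2, Usp7 and Atxn7l3, and Usp3 and Usp49. Of the exonic length of Usp49, 65.0% is shared with Med20 on the same strand. How reads there were counted is not known, so that the level per kilobase of Usp49 and its place are uncertain in both genotypes. In Rnf40ΔSC nerves the order of means was the same, with 55.0 ± 3.68 for Usp22, 47.0 ± 8.14 for Eny2, 32.3 ± 3.51 for Usp7 and 13.6 ± 2.01 for Atxn7l3. Usp7 and Atxn7l3 no longer overlapped there, as the lowest Usp7 library had a level of 28.8 per kilobase and the highest Atxn7l3 library one of 15.1. Within the SAGA module the anchor Atxn7 had the lowest level per kilobase in both genotypes. On the same scale the ligase genes had levels of 31.1 ± 1.91 (Rnf40) and 16.3 ± 1.18 (Rnf20) in control nerves.

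Ratios of 2 genes within a library need no scaling between libraries and show how the genes of writer and eraser stood to each other. The log2 ratio of Rnf40 to Usp22 reads was -0.91, -1.17 and -0.89 in control libraries and -1.65, -1.49 and -1.62 in the Rnf40ΔSC libraries. Each Rnf40ΔSC library was below each control, by -0.60 on average. Rnf40 to Eny2 moved by -0.64 and also without overlap, from 0.05, 0.48 and 0.37 in control to -0.54, -0.48 and 0.00 in Rnf40ΔSC libraries. Rnf20 to Usp22 moved the opposite way, by 0.37, and its groups overlapped. With 1 library left out, this difference ran from 0.23 (without Rnf40ΔSC replicate 2) to 0.53 (without Rnf40ΔSC replicate 3). For Rnf40 to Atxn7l3 the log2 ratio was 0.33, 0.79 and 0.79 in control and 0.90, 0.55 and 0.56 in Rnf40ΔSC nerves. These groups overlapped widely and their means differed by 0.03, as both genes were lower in Rnf40ΔSC nerves.

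Inside the module the ratios to Atxn7l3 shifted together. Usp22 to Atxn7l3 had log2 ratios of 1.247, 1.95 and 1.69 in control and of 2.56, 2.05 and 2.18 in Rnf40ΔSC libraries, a difference of 0.63. The log2 ratio of Eny2 to Atxn7l3 was 0.28, 0.31 and 0.43 in control and 1.45, 1.04 and 0.56 in Rnf40ΔSC libraries, a difference of 0.68. Atxn7 to Atxn7l3 differed by 0.71. In all 3 of these ratios each Rnf40ΔSC library was above each control library, though they share the same Atxn7l3 counts and are not independent of each other. The Rnf40ΔSC library closest to the controls was replicate 3 for Eny2 and Atxn7, and replicate 2 for Usp22. Usp7 to Usp22, a protease outside SAGA against the one inside, differed by 0.57 without overlap, whereas Usp3 to Usp22 differed by -0.30 with overlap. With 1 library left out, the Usp3 to Usp22 difference ran from -0.43 (without Rnf40ΔSC replicate 2) to -0.17 (without Rnf40ΔSC replicate 3). Of the 9 ratios compared, 6 had an exact two-sided permutation p of 0.1, the smallest that 3 against 3 libraries allow, and a Benjamini-Hochberg value of 0.15 over the 9, so that none could pass 0.05 in this design.

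**Figure D3:**
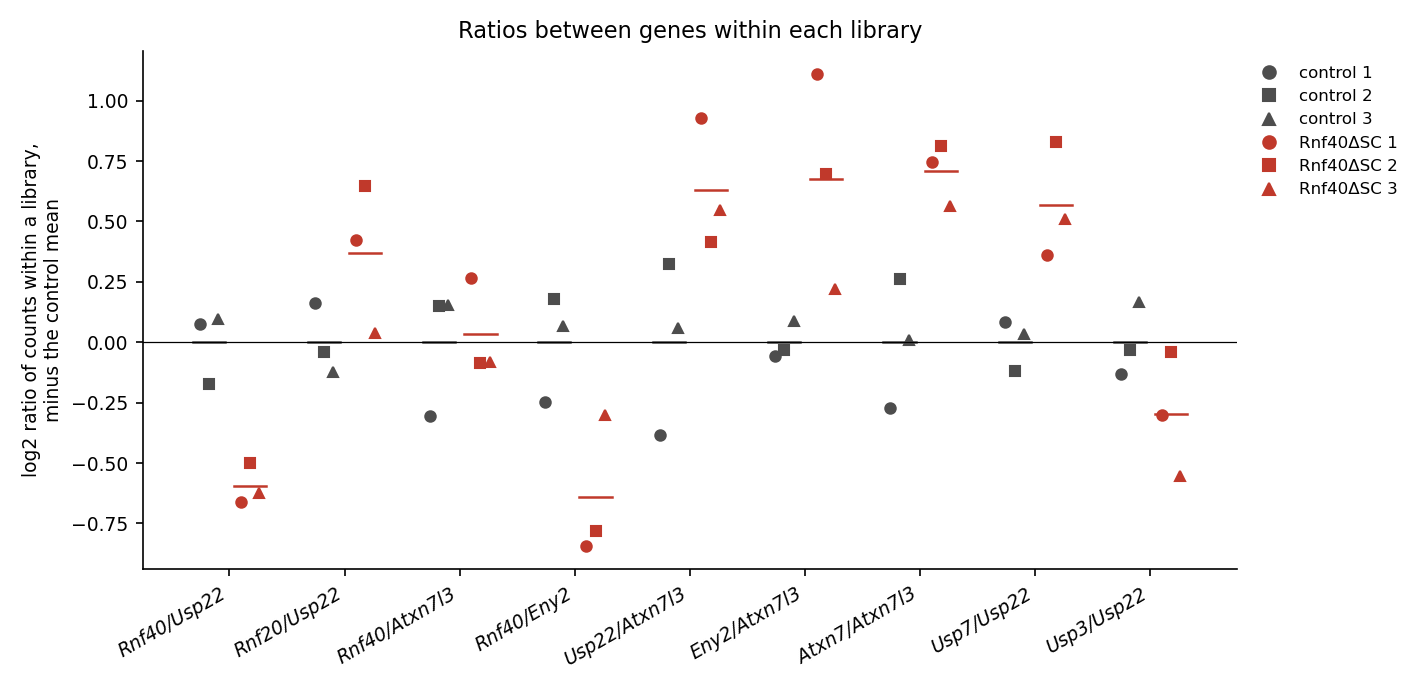
Log2 ratios of read counts between 2 genes within each library (0.5 added to each count), shown relative to the control mean, for 3 control (grey) and 3 Rnf40ΔSC (red) libraries with bars at the group means. The Rnf40/Usp22 ratio of each Rnf40ΔSC library lies below its controls and the Usp22/Atxn7l3 ratio above its controls, while the Rnf40/Atxn7l3 ratios overlap.

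Usp7 had the largest absolute log2 fold change of the 7 members with all 6 libraries. It encodes a protease best known for stabilizing MDM2 and p53, and with the enzyme GMPS it also acts on ubiquitinated H2B. Usp7 (chromosome 16, minus strand, 8688815 to 8792401 in mm9) had 115, 168 and 220 raw reads in control replicates 1, 2 and 3 and 309, 264 and 362 in the Rnf40ΔSC libraries. Scaled to a common size, the control libraries had 177, 178 and 184 normalized counts and the Rnf40ΔSC libraries 249, 309 and 281. The controls were nearly equal, and the lowest Rnf40ΔSC library stood clear of the highest control. Means were 180 ± 3.68 in control and 279.6 ± 30.3 in Rnf40ΔSC nerves (SD, n = 3 libraries each). The log2 fold change of Usp7 was 0.63 (SE 0.11, 95% interval 0.41 to 0.85, or 1.55-fold with an interval of 1.33 to 1.80), with 3 of 3 Rnf40ΔSC libraries higher and an adjusted p of 1.83e-05 in the quasi-likelihood test of edgeR (Benjamini-Hochberg).

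Among all 11371 genes tested, 769 (6.76%) had a smaller p than Usp7 and 1107 a larger log2 fold change in the same direction. Usp7 passed 0.05 in all 15 settings tried, with log2 fold changes from 0.56 to 0.90 and Benjamini-Hochberg adjusted p from 5.59e-08 to 0.000693 in edgeR and DESeq2. Without Rnf40ΔSC replicates 1 and 2 the log2 fold change of Usp7 was 0.64. Of its 7087 exonic 50-base stretches 158 (2.23%) occur more than once in the genome, the highest share among the members.

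Partners and substrates of USP7 did not pass the test with TMM scaling. Of 6 such genes (Gmps, Mdm2, Mdm4, Trp53, Uhrf1 and Dnmt1) 6 were tested and 0 were called by edgeR (compared with 31.6% of all genes). An unadjusted p under 0.05 in edgeR was reached by 1 of the 6 (Uhrf1), compared with 4657 of 11371 genes. DESeq2 called 0 of the 6 and 2267 of all genes without its prior, and edgeR with total-count scaling called 4 of the 6 and 4646 of 11371 genes. Gmps had 61.7, 47.7 and 51.0 normalized counts in control and 51.5, 56.2 and 52.0 in Rnf40ΔSC nerves, with overlapping groups and a log2 fold change of 0.01. The largest log2 fold change was that of Uhrf1 at 0.97, with 8, 2 and 14 raw reads in control and 23, 12 and 23 in Rnf40ΔSC nerves, no overlap after scaling and an adjusted p of 0.0687 (edgeR, Benjamini-Hochberg; 0.0162 with total-count scaling and up to 0.391 over all alternatives). Without control replicate 2 it was 0.50. The p53 gene Trp53 had a log2 fold change of 0.08, Mdm2 one of 0.20, Dnmt1 one of 0.17 and Mdm4 one of -0.31, which turned to 0.20 without control replicate 3. All 6 were named after their values were seen. The median over the 6 genes was 0.13.

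Promoters of the members that passed the test are shown because both genes moved, in opposite directions. Sequences from 250 bases before to 50 bases after a transcript start of each gene were taken from RefSeq (build GRCm38.p6), in which 5 of the 8 members were matched. The table has no entry for Usp22, Eny2 and Usp44. Capitals mark the GC box GGGCGG on either strand, the core of the binding motif of Sp1 and KLF factors, which occurs in 35.7% of the 32851 mouse promoters of this length. Usp7 lies at chr16:8738293-8738592 and Atxn7l3 at chr11:102296580-102296879, and both are written 5′ to 3′ on the minus strand. In mm9 the Usp7 window belongs to the start at 8738435, shared by 2 of its 4 annotated coding transcripts and 53966 bases inside the outermost start at 8792401, and which start is used in nerve was not tested. The other 4 windows lie within 27 bases of the outermost start.
Usp7: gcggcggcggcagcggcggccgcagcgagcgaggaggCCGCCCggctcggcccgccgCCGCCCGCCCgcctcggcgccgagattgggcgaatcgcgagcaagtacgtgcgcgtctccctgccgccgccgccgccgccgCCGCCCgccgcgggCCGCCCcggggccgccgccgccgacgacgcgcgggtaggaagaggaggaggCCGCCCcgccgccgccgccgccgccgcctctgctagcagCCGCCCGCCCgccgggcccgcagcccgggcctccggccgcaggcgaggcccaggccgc
Atxn7l3: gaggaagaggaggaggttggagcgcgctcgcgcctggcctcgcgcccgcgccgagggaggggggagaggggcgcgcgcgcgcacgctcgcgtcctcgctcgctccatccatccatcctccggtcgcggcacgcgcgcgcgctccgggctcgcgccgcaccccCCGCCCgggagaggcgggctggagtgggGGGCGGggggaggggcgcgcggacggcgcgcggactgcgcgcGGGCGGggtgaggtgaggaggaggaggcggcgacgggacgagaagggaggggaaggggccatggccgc

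The window of Usp7 has 86.0% GC, 63 CpG dinucleotides and 8 GC boxes, and 0.262% of all promoters hold as many of them. Matches that overlap, as in the stretches CCGCCCGCCC of Usp7, were each counted, here and over all promoters. Atxn7l3 has 80.0% GC, 51 CpG dinucleotides and 3 GC boxes, a number reached by 10.7% of promoters. The medians over all promoters were 52.7% GC and 7 CpG dinucleotides. For the other members with a sequence, 4 GC boxes were counted in Usp3, 1 in Atxn7 and 0 in Usp49. The EGR core GTGGGCG, found in 7.97% of promoters, had 2 matches in Usp3, both overlapping GC boxes, and no match in the other 4 windows. CCAAT (37.4% of promoters) was found 1 time each in Usp3, Usp7 and Usp49. The letters CCGGAA (14.9%), CACGTG (7.15%) and TGACG (20.8%) were not found on either strand of the 5 windows.

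The remaining proteases outside SAGA were low and did not pass the test. Usp3, which acts on ubiquitinated H2A and H2B, had 26.2, 32.8 and 35.1 normalized counts in control and 27.4, 29.3 and 23.3 in Rnf40ΔSC nerves. Control replicate 1 lay within the Rnf40ΔSC libraries, so that the groups overlapped. Usp3 (chromosome 9, minus strand, 66362444 to 66440949 in mm9) had a log2 fold change of -0.27 (SE 0.25, 95% interval -0.78 to 0.23), with 0 of 3 Rnf40ΔSC libraries above the control mean and an adjusted p of 0.434 in the quasi-likelihood test of edgeR (Benjamini-Hochberg). At 17 to 42 reads per library this interval holds changes from 0.583-fold to 1.17-fold. With total-count scaling the log2 fold change of Usp3 was -0.01, and without control replicate 3 or Rnf40ΔSC replicate 3 it was -0.18.

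Usp49, a protease of H2B that has been tied to splicing, had 20.1, 36.01 and 27.6 normalized counts in control and 25.8, 29.3 and 24.8 in Rnf40ΔSC nerves. The control libraries spread more widely than the Rnf40ΔSC libraries, which all lay between the lowest and the highest control. Usp49 (chromosome 17, plus strand, 47767639 to 47823687 in mm9) had a log2 fold change of -0.11 (SE 0.26, 95% interval -0.64 to 0.42) and an adjusted p of 0.791 in the quasi-likelihood test of edgeR (Benjamini-Hochberg), and 1 of 3 Rnf40ΔSC libraries was above the control mean. Its sign turned without control replicate 2 (0.10) and with total-count scaling (0.16). The annotation gives Usp49 5580 exonic bases (65.0% of its length) in common with Med20 on the same strand, so that reads of these 2 genes cannot be told apart there and the Usp49 values are uncertain.

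Usp44, a protease of H2B known from embryonic stem cells that works with the NCoR corepressor, had 0 reads in all 6 libraries. A count of 0 allows up to 3 counts per library, which corresponds to 1.22 to 2.28 CPM (counts scaled by library total) in these libraries and covers counting error only. No fold change is given for Usp44, whose level was not detectable at this depth. Its NCoR partners were expressed, and 1 of the 6 tested was called (16.7%, compared with 31.6% of all genes), with Ncor1 at a log2 fold change of 0.38 (SE 0.09) and an adjusted p of 0.00159 in the quasi-likelihood test of edgeR (Benjamini-Hochberg). All 6 log2 fold changes of these partners were above 0, with a median of 0.31, compared with -0.0026 over all genes tested. The number of called NCoR partners was 2 with RLE scaling, with a minimum of 10 counts in every library, without control replicate 1, without Rnf40ΔSC replicate 1 and without Rnf40ΔSC replicates 1 and 2, and 6 with total-count scaling, which moves the median of all genes to 0.27.

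Scaling changes which members are called. The 10 most abundant genes took 21.0% to 22.1% of counts in control and 12% to 14.98% in Rnf40ΔSC libraries. Scaling by total counts in place of TMM moved the median log2 fold change of all genes to 0.27 and the called genes from 48.8% higher (1756 of 3597) to 81.1% higher (3766, with 880 lower). On that scale Usp22 had a log2 fold change of 0.33 with an adjusted p of 0.00967 in the quasi-likelihood test of edgeR (Benjamini-Hochberg; up to 0.938 over all alternatives). Eny2 had 0.38 and 0.0440, and Usp7 had 0.90 and 5.59e-08, past the limit of 0.8. Atxn7l3 was then at -0.29 with an adjusted p of 0.214, and Rnf40 at -0.27 with 0.12 (0.00235 to 0.12 over all alternatives), both short of the test.

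**Figure D4:**
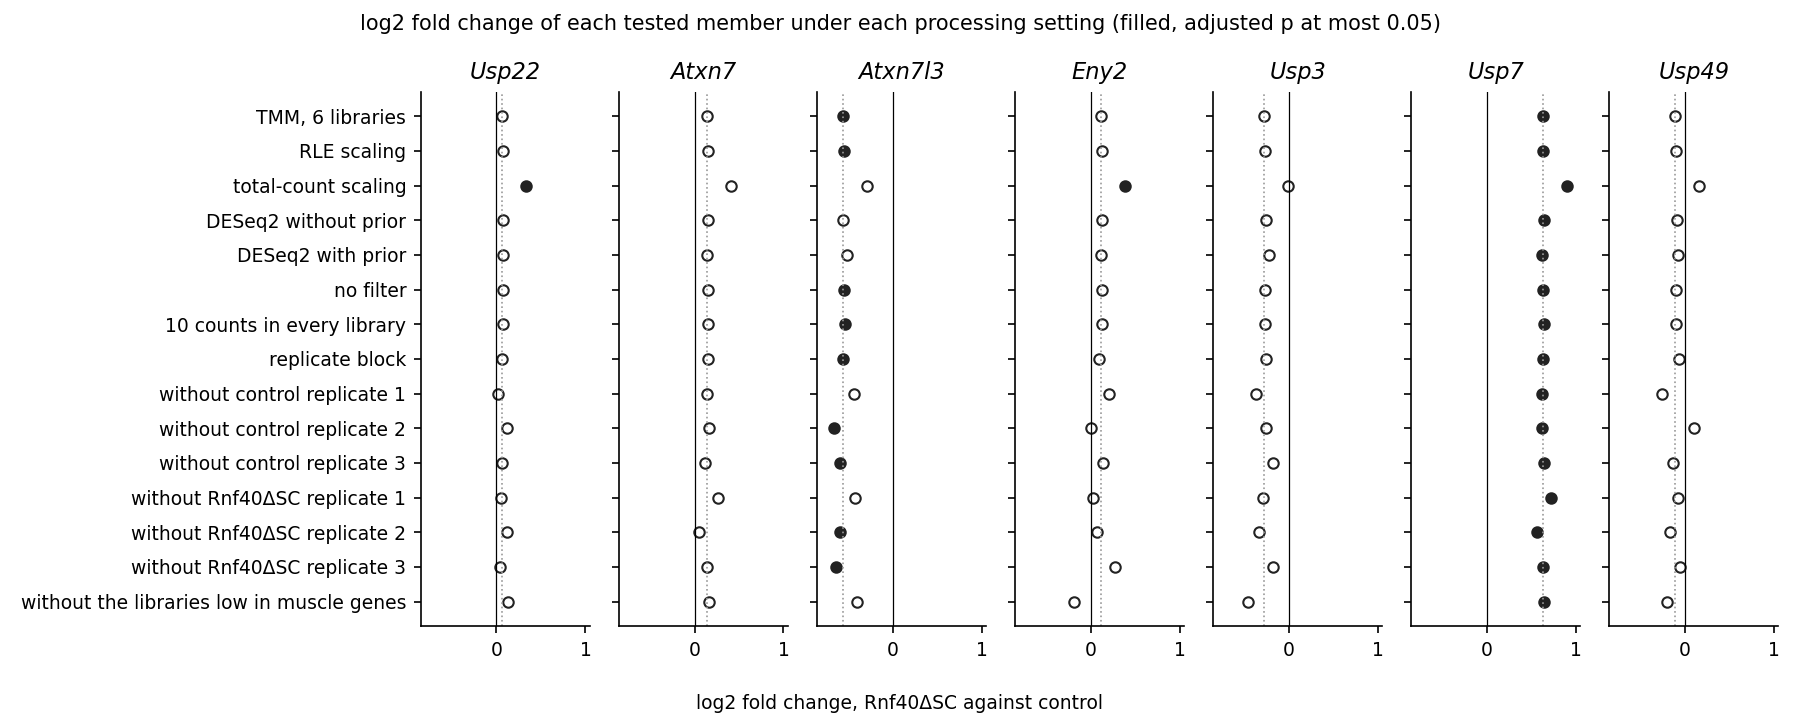
Log2 fold change between Rnf40ΔSC and control nerves for each of the 7 tested members (columns) under 15 processing settings (lines), with filled circles for an adjusted p of at most 0.05 and a dotted line at the value with TMM and 6 libraries. Usp7 is filled in every setting, Atxn7l3 in 9 of 15, Usp22 and Eny2 with total-count scaling, and the circles of Eny2 and Usp49 lie on both sides of 0.

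Genes whose pattern over the 6 libraries was most like that of each member were ranked by Pearson's r of log2 CPM among the 9251 other genes at a base mean of 20 or more. As all genes share these libraries and the 2 genotypes, r is a description with n = 6. For Usp7 the closest were Crebbp (r = 0.995), Cdk12 (0.994) and 4931406P16Rik (0.993), and 275 genes had an r above 0.95. Atxn7l3 was closest to Smyd5 (r = 0.996), Birc2 (0.993) and Gdi2 (0.990), with 51 genes above 0.95. The other members had between 5 and 10 such genes. Usp22 was closest to Spire1 (r = 0.991), Sema3f (0.983) and Zbtb6 (0.974). For Eny2 these genes were Nedd8 (r = 0.978), Ibtk (0.973) and Abhd11 (0.961), and for Atxn7 they were Rbbp8 (0.973), Ctnnd1 (0.969) and Olfm1 (0.968). Usp3 was closest to Hdhd2 (r = 0.998), Dlg4 (0.993) and Ncs1 (0.969), and Usp49 to Dclre1b (0.982), Rnf14 (0.979) and Ptges (0.966). No member was among the 3 closest genes of another member.

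Other genes around H2B ubiquitin were grouped by role and read against the same 31.6% of all genes. Of 8 genes for other ubiquitin proteases that act on H2B and their cofactors, 4 rose and 0 fell, led by Wdr20 (log2 fold change 1.04, from 11.96 ± 9.49 to 27.2 ± 5.57 normalized counts) and Usp12 (0.50). Wdr20 had 1 raw read in control replicate 1, and without that library it was at 0.66 and lost its call (adjusted p 0.147 in edgeR, Benjamini-Hochberg; 0.00703 to 0.418 over all alternatives). Usp46 of this list, named after its values were seen, was lower in each Rnf40ΔSC library than in each control, at a log2 fold change of -0.35 that was short of the test (adjusted p 0.0732 in edgeR, Benjamini-Hochberg; 0.0654 to 0.691 over all alternatives) and was -0.09 with total-count scaling. Of 7 genes for H2A deubiquitinases and partners 3 rose, among them Asxl2 (0.68) and Usp16 (0.64), and 0 fell. In the core, acetyltransferase and splicing modules of SAGA, to which the Usp22 module is attached, 2 of 18 rose (Taf9, 0.99, and Sf3b5, 0.95) and 2 fell (Ccdc101, -0.83, and Kat2b, -0.53, both named after their values were seen). Their median log2 fold change was 0.12, beside 0.06 for the members. Among 5 TREX-2 partners of Eny2, 1 rose, Shfm1, from 164 ± 7.04 to 299.8 ± 76.2 normalized counts (log2 fold change 0.87). On the side of the writer, 2 of 5 ligase and E2 genes rose and 2 fell, with Rnf40 and Ube2a (-0.52) lower and Rnf20 and Ube2b (0.37, named after its values were seen) higher. The PAF1 complex, which recruits the ligase to polymerase II, had 3 of 6 genes higher, including Wdr61 (0.50) and Rtf1 (0.47), and 0 lower. With 1 library left out, the log2 fold change of Wdr61 ran from 0.29 to 0.63, and that of Taf9 from 0.68 to 1.53. Calls in these lists are at an adjusted p of at most 0.05 in the quasi-likelihood test of edgeR (Benjamini-Hochberg). With DESeq2, which called 2267 of all genes without its prior, the number called was 0 of 8 for the other H2B proteases, 0 of 18 for SAGA, 1 of 5 for the ligase and E2 genes, 1 of 6 for the PAF1 complex, 2 of 7 for the H2A deubiquitinases and 1 of 5 for TREX-2. Without control replicate 3, edgeR called 0 of the 8 other H2B proteases and 1 of the 5 ligase and E2 genes, and without Rnf40ΔSC replicate 1 it called 1 of the 18 SAGA genes, 1 of the 5 ligase and E2 genes and 1 of the 6 PAF1 genes. Leaving out 1 library at a time gave 0 to 4 calls for the other H2B proteases, 1 to 6 for SAGA, 1 to 4 for the ligase and E2 genes, 1 to 4 for the PAF1 complex and 2 to 3 for the H2A deubiquitinases. Without Rnf40ΔSC replicates 1 and 2 it called 1 of these 8 and 0 of the 18 SAGA genes. Total-count scaling, which called 4646 of 11371 genes, gave 6 of 8, 8 of 18, 3 of 5, 5 of 6, 5 of 7 and 1 of 5 in the order of the DESeq2 counts. Asxl2, Shfm1 and Rtf1 passed in all 15 settings, though the log2 fold change of Shfm1 was 0.40 without Rnf40ΔSC replicates 1 and 2 and 1.07 without Rnf40ΔSC replicate 3. Each other called gene named from these lists lost its call in at least 1 alternative. Over the alternatives with at least 2 libraries per group, the highest adjusted p of these genes lay between 0.0530 (Ccdc101, DESeq2) and 0.28 (Wdr61, edgeR, both Benjamini-Hochberg).

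**Figure D5:**
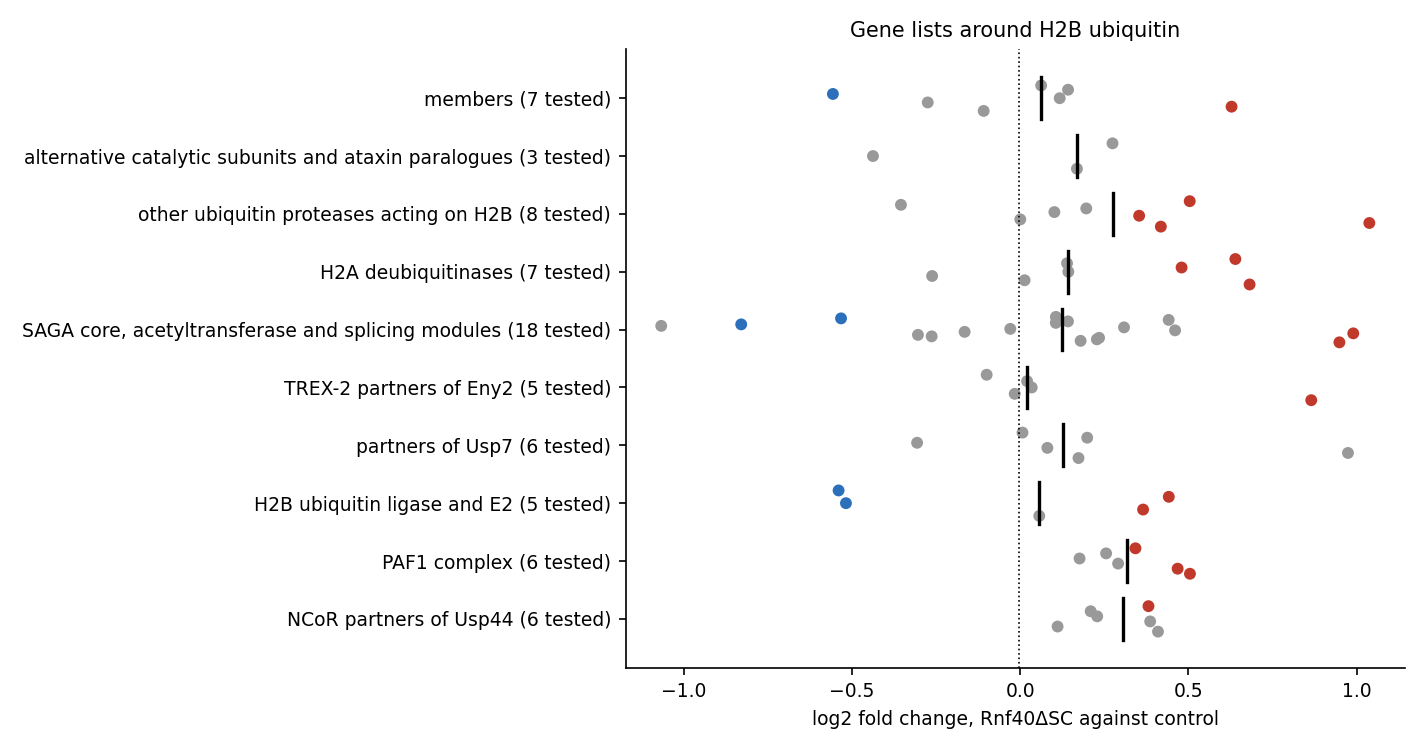
Log2 fold change between Rnf40ΔSC and control nerves for each tested gene of the members and 9 lists around H2B ubiquitin, with red and blue marking genes called higher and lower, black bars the list medians and a dotted line the median of all genes (-0.0026). The members hold 1 gene called in each direction, and with total-count scaling all points move up by a median of 0.27.

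Transcript levels of cell type markers moved with genotype as well, and their part in the differences of Usp7 and Atxn7l3 was not tested. These lists are read against 15.4% of all genes called higher and 16.2% called lower in the quasi-likelihood test of edgeR. All 8 Schwann cell markers were called, with 2 higher and 6 lower, and none was at or under 3 counts in each library. The 2 higher were Foxd3 (log2 fold change 0.90) and Egr2 (0.36), both named after their values were seen. Gfra3 had the largest absolute log2 fold change of the list, with 25, 19 and 13 raw reads in control and 1, 0 and 1 in Rnf40ΔSC nerves. At so few reads its fold is uncertain, with a log2 value of -4.92 in edgeR and -2.60 with the prior of DESeq2. The 5 fibroblast markers (4 lower, 0 higher) summed to 74480, 72940 and 78920 in control and 57920, 55830 and 54830 in Rnf40ΔSC nerves, mostly from Col3a1 (-0.49), with Col1a1 at -0.37. Lum of the same list, named after its values were seen, lay the other way at 0.12, with each Rnf40ΔSC library above each control and an adjusted p of 0.315 (edgeR, Benjamini-Hochberg; 0.00074 with total-count scaling, which calls it higher, and up to 0.69 over all alternatives). Lower calls without higher ones were found for perineurial markers (3 of 4 tested), endothelial markers (4 of 5), mural markers (2 of 5), macrophage markers (3 of 4), markers of T or mast cells (1 of 3) and adipocyte markers (3 of 5). By staining, the paper counted a larger share of Iba1-positive macrophages in Rnf40ΔSC than in control nerves at this age. That is the opposite direction to the macrophage transcripts here, and the reason was not tested. With total-count scaling (4646 of 11371 genes called) the calls in either direction were 2 of 5 for fibroblast, 1 of 5 for endothelial, 1 of 5 for mural, 2 of 4 for macrophage, 2 of 5 for adipocyte, 3 of 4 for perineurial and 1 of 3 for T or mast cell markers. Summed over each list, the mean normalized counts in control and Rnf40ΔSC nerves were 1746 and 949.5 (perineurial, Itgb4 most abundant), 1157 and 809 (endothelial, Cdh5), 1439 and 959.6 (mural, Pdgfrb), 445 and 299.9 (macrophage, Csf1r), 103 and 71.7 (T or mast cell, Cpa3) and 549 and 302 (adipocyte, Cfd). Itgb4 is also among the genes that the paper reports with less H2B ubiquitin and lower expression in Rnf40ΔSC nerves. The paper regards these genes as good candidates for direct Rnf40 targets in Schwann cells. Which cells gave the Itgb4 reads was not tested here. Most of the perineurial difference lay in Itgb4, with means of 871.9 and 269 normalized counts. Crabp2 of the same list, named after its values were seen, had 18.75 ± 7.05 in control and 30.7 ± 3.90 in Rnf40ΔSC nerves without overlap, at a log2 fold change of 0.62 and an adjusted p of 0.0918 (edgeR, Benjamini-Hochberg; 0.0111 with total-count scaling, which calls it higher, and up to 0.403 over all alternatives). Among the called genes with the largest absolute log2 fold change in these lists were Itgb4 (-1.69) and Slc2a1 (-0.66), Cldn5 (-1.12) and Kdr (-0.66), Pdgfrb (-0.65) and Rgs5 (-0.53), Cd68 (-0.81) and Csf1r (-0.63), Cpa3 (-1.03), and Plin1 (-1.31) and Cfd (-0.95). Aif1, Cd3e and Elavl4 were at or under 3 counts in each library. Skeletal muscle genes summed to 7417, 5503 and 4121 in control and 171, 377 and 4885 in Rnf40ΔSC nerves. Of these 9 genes, 0 were called by edgeR and 0 by DESeq2. An unadjusted p under 0.05 in edgeR was reached by 0 of the 9, compared with 4657 of 11371 genes. Without Rnf40ΔSC replicate 3, edgeR called 8 of the 9, where 3907 of all genes were called. Of 3 neuronal genes tested 1 was called higher (Snap25, 1.496, with 3 to 8 raw reads in control libraries), while Stmn2, the most abundant, was at -0.72 and Nefm at 0.34, both short of the test and named after their values were seen. Without Rnf40ΔSC replicate 1 Stmn2 was called lower, at an adjusted p of 0.0431 (edgeR, Benjamini-Hochberg; up to 0.442 over all alternatives). Of 9 proliferation genes 4 were called higher and 0 lower (44.4%, compared with 31.6% of all genes), among them Aurkb (1.19) and Mcm2 (0.96). Pcna of the same list, named after its values were seen, was the 1 tested gene below 0. Its log2 fold change was -0.41 with overlapping groups and an adjusted p of 0.30 (edgeR, Benjamini-Hochberg). DESeq2 called 3 of the 9, and leaving out 1 library gave 3 to 5. Mcm2 passed in all 15 settings. The calls of Snap25, Aurkb, Col1a1, Cldn5, Kdr, Rgs5, Cd68 and Cfd were lost in at least 1 alternative, with a highest adjusted p (Benjamini-Hochberg, edgeR or DESeq2) of 0.0536 for Snap25, 0.201 for Aurkb and 0.29 for Cfd, the largest of the 8.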

How the data were processed

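RNA-Seq of 6 sciatic nerve libraries from postnatal day 14 was used, grouped by the genotype in the labels. The authors used TopHat for alignment to mm9 and HTSeq-count for reads with a unique place, and deposited raw counts per gene. Annotation and strand setting of the counting are not given in the sources used here, so that overlapping genes are uncertain. The labels name an NEB Next Ultra kit and 129SvJ, the methods a NEXTFLEX directional kit and C3H, in both genotypes alike.

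Tests used edgeR 4.0.16 in R 4.3.3: filterByExpr (11371 genes), TMM, a robust quasi-likelihood fit on genotype alone and Benjamini-Hochberg adjustment over all genes tested, with calls at 0.05 or below. The script was tested on simulated counts. Totals of 1317167 to 2468765 counts make 1 read worth 0.405 to 0.759 CPM. Log2 ratios within a library used a pseudocount of 0.5 and an exact two-sided permutation test. Positions come from the GENCODE vM1 annotation of mm9, in which 20763 of 24015 symbols occur exactly once, and exon stretches of 50 bases were searched in that genome. Promoters come from RefSeq.

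Gene lists and cell markers, like the members, were chosen with earlier results of these data known. Lists covered ataxin paralogues and alternative proteases, other H2B and H2A deubiquitinases, SAGA, TREX-2, USP7 partners, ligase, PAF1 complex, NCoR, proliferation and 10 cell types. From each further list the 2 called genes with the largest absolute log2 fold change were named (fewer where fewer were called or are reported), and for each member the 3 genes with the most similar pattern. Alternatives were RLE or total-count scaling, DESeq2 1.42.0 with and without its prior, no filter or 10 counts as a minimum everywhere, a replicate block, leaving out each library, other pseudocounts, and, chosen after seeing the data, leaving out Rnf40ΔSC replicates 1 and 2, where the lone Rnf40ΔSC library is assumed to vary like the controls. The values of 1 Schwann cell marker and the summed level of that list are not reported here.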

Additional observations from a re-analysis of the deposited data

How the results depend on the processing

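Usp7 kept its direction and its call in all 15 settings, and Atxn7l3 its direction. With DESeq2, 2267 genes passed the adjusted p without the fold-change prior and 2314 with it, in place of 3597 with edgeR, and without Rnf40ΔSC replicates 1 and 2 (chosen after seeing the data) 2382 passed. In each of these 3 settings 1 member passed, Usp7. Leaving out 1 library at a time gave 2732 to 3907 genes and 1 to 2 members, with 1 without control replicate 1 and without Rnf40ΔSC replicate 1. Signs turned for Eny2 without control replicate 2 (-0.000705; up to 0.28 with 1 library left out) and without Rnf40ΔSC replicates 1 and 2 (-0.19), for Usp49 with total-count scaling (0.16) and without control replicate 2 (0.10; down to -0.26 with 1 library left out), for Atxn7l3b (-0.0087) and Gmps (-0.016) without Rnf40ΔSC replicates 1 and 2, for Gmps with 1 library left out (lowest -0.067, without control replicate 2; -0.025 without control replicate 3 and -0.024 without Rnf40ΔSC replicate 2), for Trp53 without Rnf40ΔSC replicate 3 (-0.0026), for Mdm4 without control replicate 3 (0.20; down to -0.49 with another left out) and for the Rnf40/Atxn7l3 ratio without control replicate 1 (-0.12) or Rnf40ΔSC replicate 1 (-0.083; up to 0.11 with another left out). The cause was not tested. With the replicate number as a block, 3564 genes and 2 members passed the adjusted p and 974 genes the stricter limits. Correlations of same-numbered libraries, taken on deviations from the group means, were -0.0948, -0.015 and -0.0621. Those of differently numbered libraries ran from -0.0307 to 0.104. No pairing by number was seen, but with 3 libraries per group this check cannot exclude one. Depth limits Usp3, Usp49 and Atxn7, each under 63 reads per library, and Usp44 was not detectable.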
